A study of Mus musculus with 7 samples.

Results

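The genes described here are 9 costimulatory genes of T cells: Cd28, Icos, Tnfrsf9, Tnfrsf4, Tnfrsf18, Cd27, Cd86, Cd83 and Cd226. They were chosen by symbol, and every probe set annotated to one of these symbols alone was read, 15 probe sets of 45101 on the array and 9 genes of 18194. RNA came from OT-I cells, CD8 T cells of C57BL/6 background that carry a transgenic receptor for an ovalbumin peptide, which were taken as CD44lo cells from Ly5.1 donors, labelled with the division dye CFSE and transferred by intravenous injection. All 4 groups share this donor cell, and they differ in the host and in the division state of the sorted cells.

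The RIP-OVAhi group (n = 2 arrays) held cells that had divided at least 2 times by 60 h in hosts in which the rat insulin promoter drives ovalbumin, a model of deletional tolerance. The OCS/LPS group (n = 2) held cells with as many divisions at 60 h in hosts given ovalbumin-coated splenocytes and lipopolysaccharide, a model of immunity. The Rag group (n = 1) held cells with as many divisions after 5 days in Rag-/- hosts, which have no T or B cells of their own. The naive group (n = 2) held undivided cells from antigen-free B6 hosts at 60 h. Each array read a pool of 20 mice in the RIP-OVAhi group and of 10 mice in the other groups. RIP-OVAhi cells were sorted from sacral and pancreatic lymph nodes and all others from spleen, so host and tissue cannot be told apart for that group. Likewise, time after transfer cannot be told apart from host for Rag cells. The ages of the animals are not given in the sources used here.

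T cells need a costimulatory signal beside the antigen receptor. CD28 and ICOS are receptors of the immunoglobulin superfamily that signal through phosphoinositide 3-kinase, and CD28 binds CD80 and CD86 on antigen-presenting cells. The TNF receptor family members 4-1BB (Tnfrsf9), OX40 (Tnfrsf4), GITR (Tnfrsf18) and CD27 signal through TRAF adaptors, and the first of these is known as a receptor that appears on CD8 T cells after antigen recognition. CD86 and CD83 are better known from mature dendritic cells and activated B cells, but activated T cells can make them too. CD226 is an adhesion and activating receptor for the nectin-like protein CD155.

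Values are deposited log2 expression values from GCRMA, a method that removes background and equalises the distributions of the arrays, and values under log2 5 are called near background. The arrays had medians of 2.97 to 3.08, and the replicates of a group correlated across the 8203 tested genes at r = 0.991 for the RIP-OVAhi pair, 0.991 for the OCS/LPS pair and 0.975 for the naive pair. Levels of different genes are not compared, since probe sets differ in brightness. In these bulk samples fewer cells that express a gene and less RNA per cell cannot be told apart.

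Cd86, Cd83, Tnfrsf9, Cd28 and Icos were higher in RIP-OVAhi cells than in naive cells, and Cd86, Cd83 and Tnfrsf9 were also higher in RIP-OVAhi than in OCS/LPS cells. Of the 9 genes, 8 were tested, since Tnfrsf4 was near background on every array. Calls were made in limma where the p adjusted over all tested genes was under 0.05. RIP-OVAhi against naive cells asks what cells facing tolerance express, and 5 of 8 genes were called higher. Of all tested genes 29.6% were called, 18.1% higher and 11.6% lower. OCS/LPS against naive cells asks the same for priming, and 4 of 8 were called higher, where 32.9% of all were called, 20.5% higher and 12.3% lower. Rag against naive cells asks about division without the antigen, and 1 of 8 was called higher, where 2.73% of all were called, 2.15% higher and 0.585% lower.

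Tolerance against priming is the comparison of RIP-OVAhi with OCS/LPS, in which 3 of 8 were called higher, where 2.91% of all were called, 1.61% higher and 1.3% lower. In RIP-OVAhi against Rag cells 5 of 8 were called higher, where 16.7% of all were called, 9.84% higher and 6.9% lower. In OCS/LPS against Rag cells 4 of 8 were called higher, where 18.1% of all were called, 11.2% higher and 6.9% lower. By limma, 0 of the 8 were called lower in any of the 6 comparisons. Before adjustment, p was under 0.05 for a lower value of 1 gene in OCS/LPS against naive (Tnfrsf18) and of 2 in Rag against naive (Icos and Cd83). The 3 comparisons with naive cells share the same naive arrays. The median log2 difference of the 8 genes was 1.47 in RIP-OVAhi against naive (0.06 over all tested genes), 0.80 in OCS/LPS against naive (0.08) and 0.39 in RIP-OVAhi against OCS/LPS (-0.05). Cd86 entered the tests only through the divided groups, where it is above log2 5. Cd83 entered them only through RIP-OVAhi and OCS/LPS, since outside these groups naive replicate 2 alone reached log2 5 (5.27). These counts and medians therefore describe the list and are not offered as support.

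**Figure D1:**
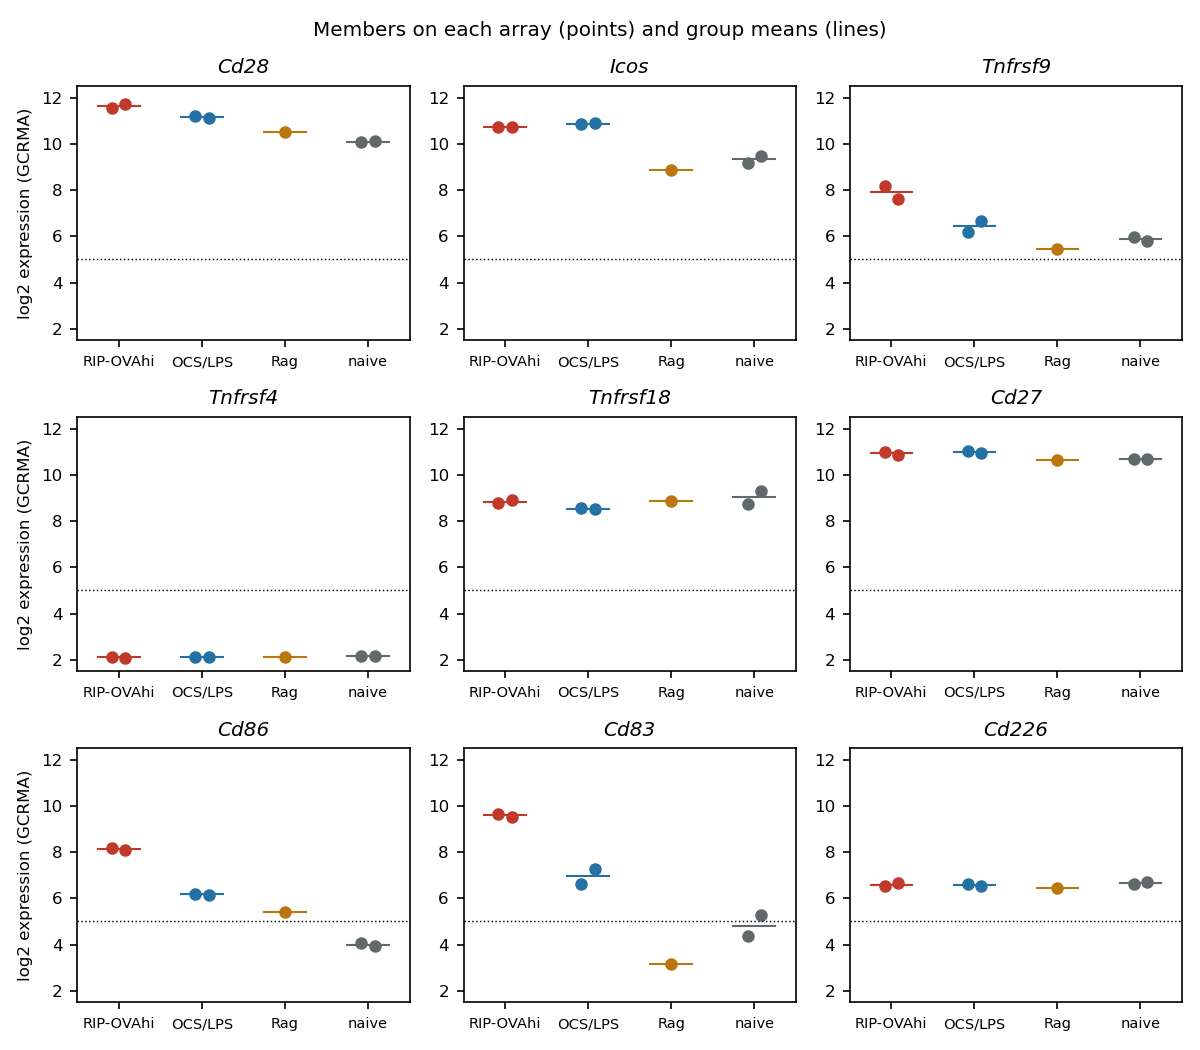
Log2 expression of the 9 genes, each read by its brightest probe set. Points are arrays (n = 2 in RIP-OVAhi, OCS/LPS and naive, n = 1 in Rag), short lines are group means, and the dotted line marks log2 5. Cd86 and Cd83 lie highest in RIP-OVAhi, at 8.10 to 8.17 and 9.53 to 9.65, and Tnfrsf4 lies between 2.08 and 2.16 on every array.

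Cd28 encodes the principal costimulatory receptor of naive T cells. It read 11.55 and 11.73 on the RIP-OVAhi arrays, 11.21 and 11.12 on the OCS/LPS arrays, 10.51 in Rag and 10.09 and 10.10 in naive cells. The groups did not overlap, and they ran in that order from high to low. Cd28 rose by 1.54 on the log2 scale in RIP-OVAhi against naive cells (SE 0.12, 2.91-fold, adjusted p = 0.000607) and by 1.07 in OCS/LPS (SE 0.12, 2.09-fold, adjusted p = 0.00216). In Rag the difference from naive was 0.41 (95% interval 0.04 to 0.79, adjusted p = 0.243). RIP-OVAhi and OCS/LPS, which are neighbours in this order, differed by 0.48 (95% interval 0.17 to 0.78, adjusted p = 0.14).

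Cd28 was higher by 1.13 in RIP-OVAhi than in Rag (SE 0.15, adjusted p = 0.00706), a call lost without RIP-OVAhi replicate 2 (1.04, adjusted p = 0.0612). It was higher by 0.66 in OCS/LPS than in Rag (SE 0.15, adjusted p = 0.0363), and that call was lost without any 1 of the RIP-OVAhi or OCS/LPS arrays (up to adjusted p = 0.151). The other probe set of Cd28 gave the same order of groups, with means of 11.33 in RIP-OVAhi, 11.04 in OCS/LPS, 10.71 in Rag and 10.10 in naive cells. Its differences from naive were 1.23 in RIP-OVAhi (adjusted p = 0.0024) and 0.94 in OCS/LPS (adjusted p = 0.00497), and its differences from Rag were 0.61 in RIP-OVAhi (adjusted p = 0.0575) and 0.33 in OCS/LPS (adjusted p = 0.209), neither of them called.

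Icos encodes the inducible relative of CD28, which binds ICOS ligand. It read 10.71 and 10.72 on the RIP-OVAhi arrays, 10.84 and 10.88 on the OCS/LPS arrays, 8.86 in Rag and 9.18 and 9.47 in naive cells. The antigen-driven groups lay together at the top, and Rag lay below every naive array. Icos rose by 1.39 in RIP-OVAhi against naive (SE 0.14, 2.62-fold, adjusted p = 0.00139) and by 1.54 in OCS/LPS (SE 0.14, 2.90-fold, adjusted p = 0.000792).

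RIP-OVAhi and OCS/LPS differed in Icos by -0.15 (95% interval -0.49 to 0.19, adjusted p = 0.686), so a difference of up to 0.49 in favour of OCS/LPS lies within the interval. Against Rag, Icos was 1.85 higher in RIP-OVAhi (SE 0.17, adjusted p = 0.0021) and also higher in OCS/LPS (95% interval 1.58 to 2.42, SE 0.17, adjusted p = 0.0017). The difference between Rag and naive was -0.46 (adjusted p = 0.237), and it was called only without naive replicate 1 (-0.61, adjusted p = 0.0322). The other probe sets of Icos differed from naive by 1.07 and 1.19 in RIP-OVAhi and by 1.20 and 1.02 in OCS/LPS, and all of these were called.

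Tnfrsf9 encodes 4-1BB, which supports the survival and expansion of CD8 T cells. It read 8.19 and 7.63 on the RIP-OVAhi arrays, 6.21 and 6.65 on the OCS/LPS arrays, 5.45 in Rag and 5.96 and 5.81 in naive cells. Every RIP-OVAhi array lay above every other array. Tnfrsf9 rose by 2.03 in RIP-OVAhi against naive (SE 0.24, 4.08-fold, adjusted p = 0.00251). In OCS/LPS the difference from naive was 0.54 (95% interval -0.04 to 1.12, adjusted p = 0.132), and in Rag it was -0.43 (95% interval -1.14 to 0.28, adjusted p = 0.495).

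Between the antigen-driven groups Tnfrsf9 was 1.48 higher in RIP-OVAhi than in OCS/LPS (SE 0.24, 2.80-fold, adjusted p = 0.0354). This call was lost without any 1 of the RIP-OVAhi, OCS/LPS or naive arrays, with differences of 1.21 to 1.76 and adjusted p of up to 0.253, and without the filter on low values (adjusted p = 0.17). A dimmer probe set put Tnfrsf9 at 7.47 and 7.205 on the RIP-OVAhi arrays, 5.43 and 5.86 on the OCS/LPS arrays, 4.44 in Rag and 4.48 and 5.67 in naive cells. It gave a difference of 1.69 between RIP-OVAhi and OCS/LPS (SE 0.40, adjusted p = 0.12). The remaining probe set stayed at 1.88 to 1.92 on every array, near background, and carried no information on the groups.

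The promoter table from RefSeq (GRCm38.p6) had entries for 4 of the 9 genes, all of them TNF receptor family members: Tnfrsf9, Tnfrsf4, Tnfrsf18 and Cd27. The 250 bases before each annotated start are shown for Tnfrsf9, the member of this family that rose, and for Tnfrsf18, a member on the same chromosome that was not called. Tnfrsf9 has a pair of annotated starts, and the windows before them are chr4:150919905-150920154 (+) and chr4:150927749-150927998 (+). The Tnfrsf18 window is chr4:156026072-156026321 (+). Capitals mark matches on either strand to the NF-kB consensus and to the AP-1 motif TGANTCA.
Tnfrsf9, upstream start: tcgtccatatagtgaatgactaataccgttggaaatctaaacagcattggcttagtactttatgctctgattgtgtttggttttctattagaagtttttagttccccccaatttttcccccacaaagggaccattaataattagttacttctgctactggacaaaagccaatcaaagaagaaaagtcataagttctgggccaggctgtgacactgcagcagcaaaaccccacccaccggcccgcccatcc
Tnfrsf9, downstream start: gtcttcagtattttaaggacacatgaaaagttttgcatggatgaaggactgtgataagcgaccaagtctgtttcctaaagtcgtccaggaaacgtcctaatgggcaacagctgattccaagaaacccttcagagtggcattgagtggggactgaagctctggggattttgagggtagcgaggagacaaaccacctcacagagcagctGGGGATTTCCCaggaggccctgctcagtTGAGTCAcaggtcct
Tnfrsf18: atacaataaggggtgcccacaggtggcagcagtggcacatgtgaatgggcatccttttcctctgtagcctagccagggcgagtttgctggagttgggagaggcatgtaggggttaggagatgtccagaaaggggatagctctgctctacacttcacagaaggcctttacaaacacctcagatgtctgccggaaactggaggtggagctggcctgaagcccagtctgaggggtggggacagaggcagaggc

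In the window of the downstream Tnfrsf9 start, the NF-kB consensus matched at 43 and 42 bases before the start, as overlapping matches, and the AP-1 motif matched at 15 bases before it, with no overlap between the motifs. The windows of the upstream Tnfrsf9 start, Tnfrsf4, Tnfrsf18 and Cd27 held neither set of letters. Over all 32851 windows of this length in the table, 7.25% held the NF-kB consensus, 6.75% the AP-1 motif and 0.356% both. These matches are letters in a window, and no binding was measured here.

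Tnfrsf18 encodes GITR, which naive T cells already carry. It read 8.78 and 8.89 on the RIP-OVAhi arrays, 8.55 and 8.51 on the OCS/LPS arrays, 8.88 in Rag and 8.74 and 9.31 in naive cells. RIP-OVAhi overlapped naive, whereas both OCS/LPS arrays lay below every other array. The difference from naive was -0.19 in RIP-OVAhi (95% interval -0.68 to 0.31, adjusted p = 0.527) and -0.50 in OCS/LPS (SE 0.20, adjusted p = 0.111). Without naive replicate 1 these were -0.47 (adjusted p = 0.0278) and -0.79 (adjusted p = 0.00787), so the choice of naive array decides both calls.

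Cd27 encodes a receptor of naive and memory T cells that binds CD70. It read 11.00 and 10.87 on the RIP-OVAhi arrays, 11.01 and 10.96 on the OCS/LPS arrays, 10.65 in Rag and 10.69 and 10.68 in naive cells. The antigen-driven arrays lay above the others by small amounts. The difference from naive was 0.25 in RIP-OVAhi (95% interval -0.04 to 0.54, adjusted p = 0.161), 0.30 in OCS/LPS (95% interval 0.01 to 0.59, adjusted p = 0.104) and -0.03 in Rag (95% interval -0.38 to 0.32, adjusted p = 0.94).

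Tnfrsf4, which encodes OX40, read 2.14 and 2.08 on the RIP-OVAhi arrays, 2.14 and 2.14 on the OCS/LPS arrays, 2.13 in Rag and 2.15 and 2.16 in naive cells. Its single probe set was near background throughout, so it was not tested and no fold is given.

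**Figure D2:**
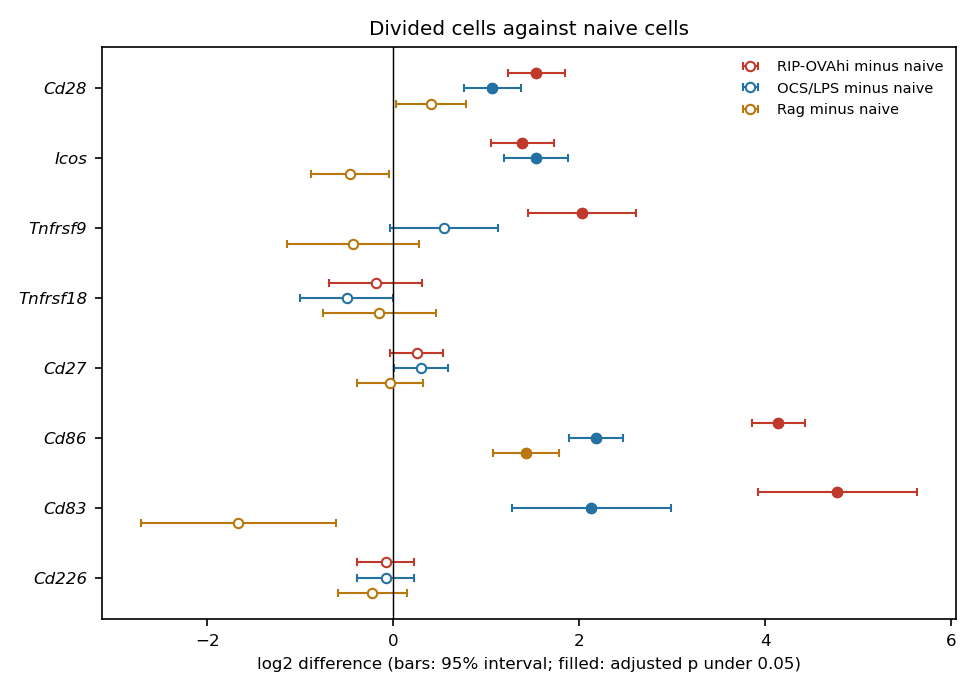
Log2 difference of RIP-OVAhi, OCS/LPS and Rag from naive cells for the 8 tested genes. Points are limma estimates, bars are 95% intervals, and filled points have an adjusted p under 0.05. Cd83 and Cd86 show the largest differences in RIP-OVAhi (4.78 and 4.14), and only Cd86 is filled in Rag (1.43).

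Cd86 encodes a B7 ligand for CD28 and for the inhibitory receptor CTLA-4. It read 8.17 and 8.10 on the RIP-OVAhi arrays, 6.17 and 6.16 on the OCS/LPS arrays, 5.42 in Rag and 4.05 and 3.93 in naive cells. The groups were fully separate and ran in that order from high to low. Cd86 rose by 4.14 in RIP-OVAhi against naive (SE 0.12, adjusted p = 2.62e-05), by 2.18 in OCS/LPS (SE 0.12, adjusted p = 0.000106) and by 1.43 in Rag (SE 0.14, adjusted p = 0.00813). Naive values were near background, so on the scale of the array the rises were at least 8.77-fold in RIP-OVAhi, at least 2.25-fold in OCS/LPS and at least 1.34-fold in Rag, counted from log2 5. The call in Rag was lost without either RIP-OVAhi array (1.43, adjusted p = 0.0579).

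Cd86 was 1.96 higher in RIP-OVAhi than in OCS/LPS (SE 0.12, 3.90-fold, adjusted p = 0.00134), with all 4 arrays above log2 5. It was called without any 1 of the 7 arrays, with differences of at least 1.93 and adjusted p of up to 0.0439. Against Rag it was 2.72 higher in RIP-OVAhi (SE 0.14, 6.57-fold, adjusted p = 0.000426) and 0.75 higher in OCS/LPS (SE 0.14, 1.68-fold, adjusted p = 0.0218). The call of OCS/LPS against Rag was lost without any 1 of the RIP-OVAhi or OCS/LPS arrays (up to adjusted p = 0.108) and with the mean of both probe sets (0.43, adjusted p = 0.0702).

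The other Cd86 probe set read 7.32 and 7.51 on the RIP-OVAhi arrays, 5.25 and 5.40 on the OCS/LPS arrays, 5.22 in Rag and 3.997 and 3.86 in naive cells. It gave 2.09 between RIP-OVAhi and OCS/LPS (SE 0.14, adjusted p = 0.00381). Between OCS/LPS and Rag it gave 0.10 (SE 0.18, adjusted p = 0.74), so the order of those neighbours rests on the brighter probe set.

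Cd83 encodes a surface protein of mature dendritic cells that is also induced on activated lymphocytes. It read 9.65 and 9.53 on the RIP-OVAhi arrays, 6.61 and 7.28 on the OCS/LPS arrays, 3.15 in Rag and 4.35 and 5.27 in naive cells. The groups did not overlap, and Rag lay lowest. Cd83 rose by 4.78 in RIP-OVAhi against naive (SE 0.35, adjusted p = 0.000408) and by 2.13 in OCS/LPS (SE 0.35, adjusted p = 0.00716). With 1 of the naive arrays near background, the size of these rises depends on that level. The call in OCS/LPS was lost without OCS/LPS replicate 2 (1.80, adjusted p = 0.0628) and without the filter (adjusted p = 0.0563).

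Cd83 was 2.65 higher in RIP-OVAhi than in OCS/LPS (SE 0.35, 6.26-fold, adjusted p = 0.0211). That call was lost without any 1 of the RIP-OVAhi or OCS/LPS arrays, with differences of 2.31 to 2.98 over the arrays left out and adjusted p of up to 0.226, and without the filter (adjusted p = 0.145). Against Rag, which was near background, Cd83 was at least 24.1-fold higher in RIP-OVAhi (adjusted p = 0.000752) and at least 3.85-fold higher in OCS/LPS (adjusted p = 0.00395), counted from log2 5. Rag and the mean of naive cells were both near background, so no size is given for their difference, which was not called (adjusted p = 0.126) except without naive replicate 1 (adjusted p = 0.0269).

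Cd226 read 6.52 and 6.66 on the RIP-OVAhi arrays, 6.63 and 6.55 on the OCS/LPS arrays, 6.45 in Rag and 6.62 and 6.73 in naive cells. Its whole span over the 7 arrays was 0.28. The difference from naive was -0.08 in RIP-OVAhi (95% interval -0.39 to 0.22, adjusted p = 0.659) and -0.08 in OCS/LPS (95% interval -0.39 to 0.22, adjusted p = 0.648), and RIP-OVAhi and OCS/LPS differed by -0.00 (95% interval -0.31 to 0.30).

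**Figure D3:**
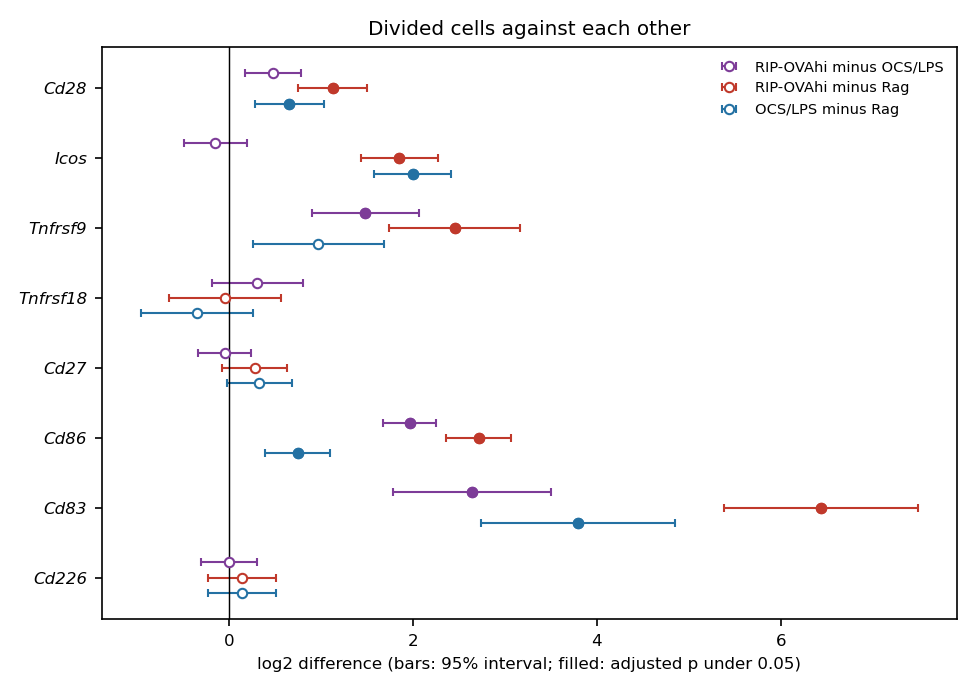
Log2 differences among the divided groups for the 8 tested genes, with 95% intervals. Filled points have an adjusted p under 0.05. Cd83, Cd86 and Tnfrsf9 are filled in RIP-OVAhi minus OCS/LPS (2.65, 1.96 and 1.48), whereas Icos is close to 0 there (-0.15) and higher against Rag (1.85 in RIP-OVAhi).

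**Figure D4:**
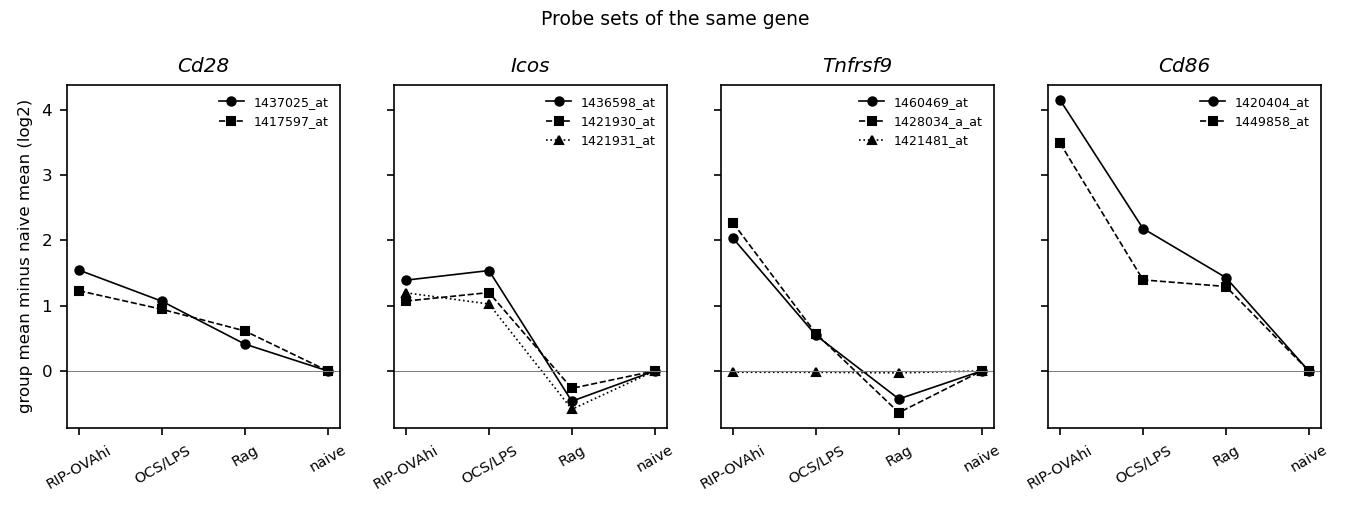
Group mean minus naive mean on the log2 scale for each probe set of the 4 genes with several. Lines join the groups of 1 probe set. All probe sets of Cd28, Icos and Cd86 lie above naive in RIP-OVAhi and OCS/LPS, those of Cd86 differ in the gap between OCS/LPS and Rag (0.75 and 0.10), and 1 of the 3 for Tnfrsf9 stays near background.

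Markers of other cells that make CD86 and CD83 were read beside these values. All 7 T cell markers on the array, among them Cd3e and Cd8a, lay above log2 5 on every array, and none of the 4 CD4 and regulatory T cell markers did. Of 10 MHC class II and dendritic cell markers, 1 reached log2 5 on each RIP-OVAhi array, against 5 in OCS/LPS, 4 in Rag and 4 in naive cells. The log2 of the summed level of this list was 8.72 to 8.73 in RIP-OVAhi, 8.69 to 8.94 in OCS/LPS, 9.37 in Rag and 8.78 to 9.20 in naive cells. The 1 marker above log2 5 in RIP-OVAhi was H2-DMa, which helps to load MHC class II, and it made up most of the summed level there. H2-DMa read 8.53 and 8.49 in RIP-OVAhi cells, 7.45 and 7.33 in OCS/LPS cells, 7.72 in Rag cells and 7.92 and 8.56 in naive cells, and its difference of 1.12 between RIP-OVAhi and OCS/LPS was not called (adjusted p = 0.067). H2-Aa, an MHC class II chain, read 1.77 and 2.74 in RIP-OVAhi. The dendritic cell genes Flt3, Zbtb46, Batf3, Xcr1 and Siglech were near background on all arrays. Itgax, also of this list, read 5.64 and 5.52 in OCS/LPS and was near background elsewhere. In RIP-OVAhi against OCS/LPS limma called 0 of 5 tested genes of this list higher and 4 lower (H2-Aa, H2-Ab1, H2-Eb1 and Itgax). Over all tested genes 1.61% were called higher and 1.3% lower. These 4 passed the filter only through other groups, so the count describes the list and is not offered as support.

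Of 10 myeloid markers, 0 reached log2 5 in RIP-OVAhi, 2 in OCS/LPS, 6 in Rag and 2 to 3 in naive cells. Their summed level was 6.23 to 6.40 in RIP-OVAhi, 8.11 to 8.73 in OCS/LPS, 10.25 in Rag and 8.45 to 9.11 in naive cells. Of 7 B cell markers, 2 reached log2 5 in RIP-OVAhi, 2 to 3 in OCS/LPS, 1 in Rag and 1 to 2 in naive cells, with summed levels of 8.51 to 9.01, 9.32 to 9.72, 7.39 and 7.66 to 8.63 in that order. Among them Cd79a, Pax5 and Blk were near background on every array, and Cd22 read 6.53 and 7.03 on the RIP-OVAhi arrays, 8.20 and 8.55 on the OCS/LPS arrays, 4.28 in Rag and 4.04 and 3.59 in naive cells. Where Cd86 and Cd83 were highest, on the RIP-OVAhi arrays, the summed level of the myeloid list was lowest. The sum of the MHC class II and dendritic cell list, mostly H2-DMa there, overlapped OCS/LPS and lay below naive and Rag. For the B cell list the sum lay above Rag, below OCS/LPS and overlapping naive. Cd22 was at least 3.43-fold higher in RIP-OVAhi than in naive cells, counted from log2 5 (adjusted p = 0.000676), and its log2 difference between RIP-OVAhi and OCS/LPS was -1.60 (adjusted p = 0.0319). Cd22 entered the tests only through RIP-OVAhi and OCS/LPS. The part of B cells, dendritic cells or myeloid cells in the Cd86 and Cd83 values was not tested. RIP-OVAhi cells came from lymph nodes and all others from spleen, so for these lists too host and tissue cannot be told apart. Of 4 neutrophil markers at most 1 reached log2 5 on any array, and of 2 NK cell markers at most 1 did. In the Rag array the macrophage gene Csf1r read 8.51, and the part of such cells in the Cd86 value of that array was not tested.

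**Figure D5:**
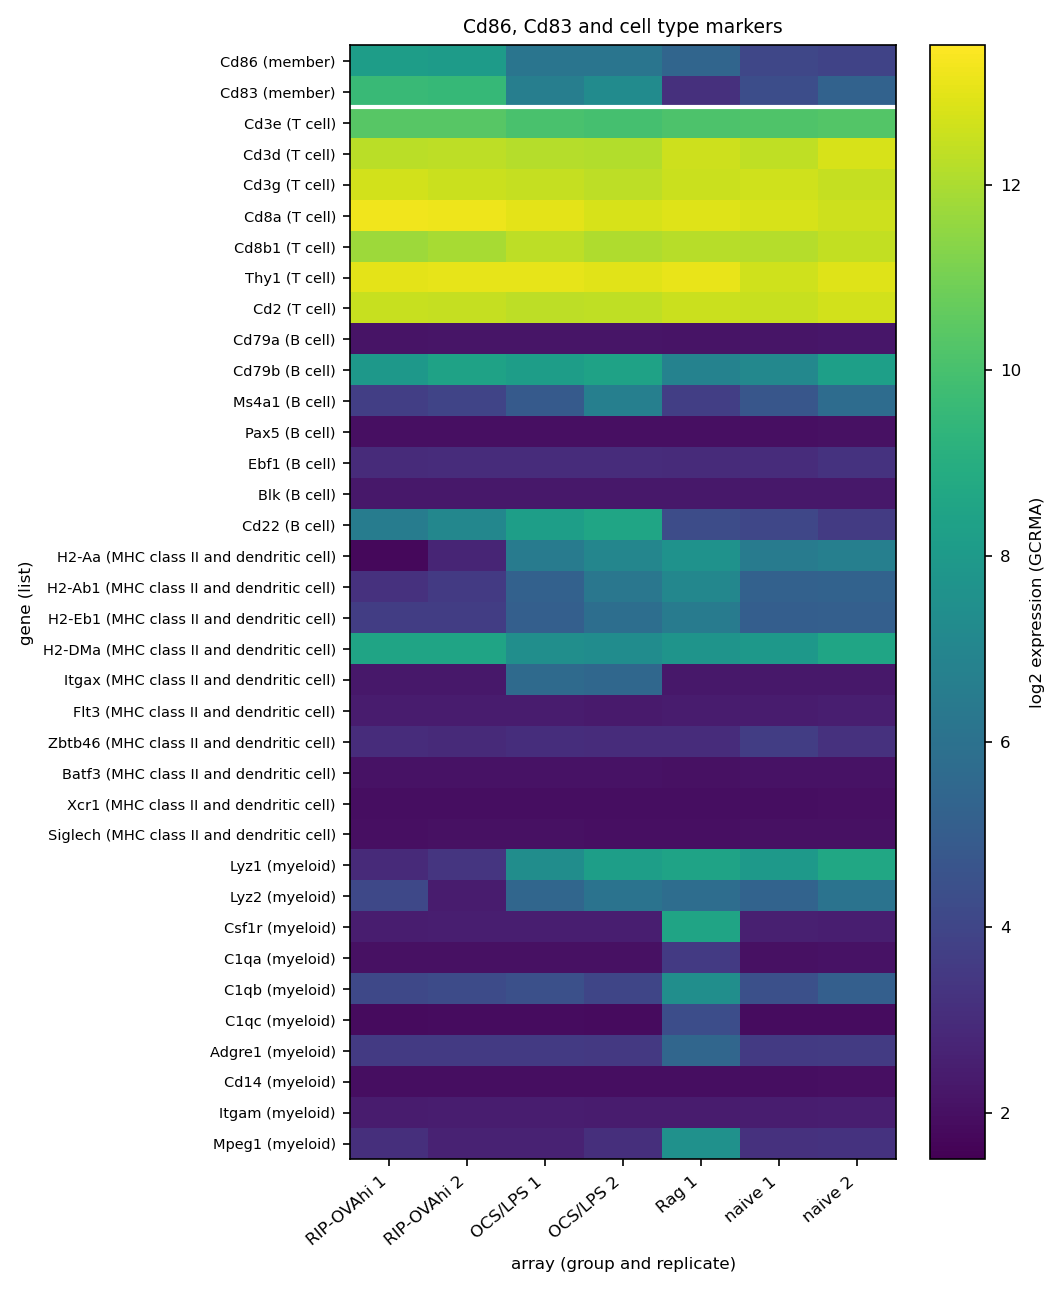
Log2 expression of Cd86 and Cd83 (top rows) and of markers of T cells, B cells, MHC class II and dendritic cells, and myeloid cells on each array, on a colour scale. Cd86 and Cd83 are brightest in the RIP-OVAhi columns. There H2-Aa (1.77 and 2.74), Lyz1 (2.94 and 3.36) and Ms4a1 (3.74 and 3.98) are dark. In the same columns H2-DMa (8.53 and 8.49), Cd79b (7.89 and 8.43) and Cd22 (6.53 and 7.03) are bright.

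Ligands of these receptors were mostly near background in the sorted cells. Of 7 ligand genes on the array, Cd80, Icosl, Tnfsf9, Tnfsf4, Cd70 and Nectin2 were near background on every array and 1 was tested. That gene, Pvr, which encodes the CD226 ligand CD155, read 6.16 and 5.83 on the RIP-OVAhi arrays, 5.36 and 5.37 on the OCS/LPS arrays, 4.71 in Rag and 5.37 and 4.93 in naive cells. It rose by 0.85 in RIP-OVAhi against naive (SE 0.19, adjusted p = 0.0229). Without any 1 of the RIP-OVAhi or OCS/LPS arrays this call was lost (up to adjusted p = 0.145), as it was without the filter (adjusted p = 0.092). Cd80, the other ligand of CD28, read 2.94 to 3.02.

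Receptors that compete for the same ligands were read too, 3 of 5 being on the array and tested. Ctla4, which binds CD86 and opposes CD28, read 10.33 and 9.94 on the RIP-OVAhi arrays, 10.22 and 9.95 on the OCS/LPS arrays, 2.26 in Rag and 2.64 and 2.29 in naive cells. Ctla4 was at least 35.1-fold higher in RIP-OVAhi and at least 33.9-fold higher in OCS/LPS than in naive cells, counted from log2 5, and its values in RIP-OVAhi and OCS/LPS overlapped, unlike those of Cd86. Ctla4 entered the tests only through RIP-OVAhi and OCS/LPS. Cd96, a CD155 receptor, read 10.92 and 11.14 on the RIP-OVAhi arrays, 10.48 and 10.53 on the OCS/LPS arrays, 10.60 in Rag and 10.87 and 11.09 in naive cells. Cd274, which encodes the ligand PD-L1 and also binds CD80, fell by 0.77 in RIP-OVAhi (SE 0.18, adjusted p = 0.0243) and by 0.75 in OCS/LPS (SE 0.18, adjusted p = 0.0248) against naive cells. Both Cd274 calls were lost without naive replicate 1 or without either OCS/LPS array, and that in RIP-OVAhi also without RIP-OVAhi replicate 2 (up to adjusted p = 0.138), and both without the filter (up to adjusted p = 0.0896).

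Downstream of the TNF receptors, 10 of 11 TRAF adaptor and partner genes were tested. In RIP-OVAhi against naive 3 rose and 1 fell, where 18.1% of all tested genes rose and 11.6% fell. In OCS/LPS 2 rose and 1 fell, near the shares over all tested genes, 20.5% and 12.3%. The median log2 difference of the 10 was 0.30 in RIP-OVAhi and 0.19 in OCS/LPS. In RIP-OVAhi, Traf1, an adaptor for 4-1BB, rose by 1.27 (SE 0.25, adjusted p = 0.0135), which did not hold without either RIP-OVAhi array (up to adjusted p = 0.105). With the mean of its probe sets the Traf1 difference was 0.68 and still called, and without the filter on low values it was not called (adjusted p = 0.0765). Map3k14, the kinase NIK of the non-canonical NF-kB pathway, was near background in both antigen-driven groups, and counted from log2 5 it was at least 1.65-fold lower in each than in naive cells (adjusted p = 0.00516 in RIP-OVAhi and 0.00191 in OCS/LPS). Map3k14 entered the tests only through the naive and Rag arrays. Without RIP-OVAhi replicate 1 its call in RIP-OVAhi was lost (adjusted p = 0.0536). In RIP-OVAhi against OCS/LPS limma called 0 of 10, with 1 higher and 1 lower at p under 0.05 before adjustment.

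Of 15 tested genes in the list of CD28 and ICOS signalling, 5 rose and 4 fell in RIP-OVAhi against naive, and 5 rose and 2 fell in OCS/LPS. Over all tested genes 18.1% rose and 11.6% fell in RIP-OVAhi, and 20.5% and 12.3% in OCS/LPS. The median log2 difference of the 15 was 0.05 in RIP-OVAhi and 0.11 in OCS/LPS, against 0.06 and 0.08 over all. Sh2d2a, which encodes the T cell adaptor TSAd, rose by 1.18 in RIP-OVAhi (SE 0.12, adjusted p = 0.00172) and by 1.28 in OCS/LPS (SE 0.12, adjusted p = 0.00107). Pdk1 fell by 1.30 in RIP-OVAhi (SE 0.14, adjusted p = 0.00169) and by 0.94 in OCS/LPS (SE 0.14, adjusted p = 0.00468). This symbol stands for pyruvate dehydrogenase kinase, which is no part of the CD28 pathway, but the counts and medians above include it. Pdpk1, which encodes the kinase PDK1 of the pathway, fell by 0.50 in RIP-OVAhi (SE 0.13, adjusted p = 0.0332). That Pdpk1 call was lost without any 1 of the RIP-OVAhi or OCS/LPS arrays and under 3 of 8 alternatives (up to adjusted p = 0.597). Pik3ca, a catalytic subunit of phosphoinositide 3-kinase, fell by 0.98 in RIP-OVAhi (SE 0.14, adjusted p = 0.00495), which did not hold without RIP-OVAhi replicate 2 (adjusted p = 0.055). With the mean of all its probe sets the Pik3ca difference in RIP-OVAhi was -0.40 (adjusted p = 0.0427). Over the arrays left out in turn, the number that rose in RIP-OVAhi was 1 to 5 and the number that fell 1 to 5.

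Of 16 other members of the TNF receptor superfamily on the array, 6 passed the filter and were tested. In RIP-OVAhi against naive 2 rose and 1 fell, where 29.6% of all tested genes were called, and in OCS/LPS 3 rose and 1 fell, where 32.9% were. Their median log2 difference was 0.33 in RIP-OVAhi and 0.75 in OCS/LPS. The gene that fell was Tnfrsf25, which was near background in both antigen-driven groups. It entered the tests only through the naive arrays (6.41 and 6.54), so its fall is not offered as support. Counted from log2 5 Tnfrsf25 was at least 2.78-fold lower in each antigen-driven group than in naive cells (adjusted p = 0.0184 in RIP-OVAhi and 0.0128 in OCS/LPS). Both calls were lost without the filter (adjusted p = 0.113 and 0.0892), and that in RIP-OVAhi also without any 1 of the RIP-OVAhi or naive arrays. Tnfrsf1b, the TNF receptor 2, rose by 1.45 in RIP-OVAhi (SE 0.13, adjusted p = 0.000934) and by 0.82 in OCS/LPS (SE 0.13, adjusted p = 0.00645), the call in OCS/LPS being lost without OCS/LPS replicate 2 (adjusted p = 0.0559). With the mean of its probe sets the difference from naive was 0.70 in RIP-OVAhi and 0.38 in OCS/LPS, both still called. Tnfrsf13c, the BAFF receptor, was 1.30 lower in RIP-OVAhi than in OCS/LPS (SE 0.16, adjusted p = 0.0162), which did not hold without any 1 of those arrays (up to adjusted p = 0.196) or without the filter (adjusted p = 0.078).

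Of 14 tested genes among other costimulatory and SLAM receptors, 6 rose and 1 fell in RIP-OVAhi against naive, 5 rose in OCS/LPS and Slamf7 alone in Rag (at least 2.16-fold, adjusted p = 0.0397, up to 0.151 without 1 array and 0.146 without the filter). Over all tested genes 18.1% rose and 11.6% fell in RIP-OVAhi, 20.5% rose in OCS/LPS and 2.15% in Rag. The median log2 difference of the 14 was 0.60 in RIP-OVAhi and 0.57 in OCS/LPS. Slamf7, a receptor of the SLAM family, was near background in naive cells, and counted from log2 5 it was at least 4.29-fold higher in RIP-OVAhi (adjusted p = 0.000883) and at least 6.33-fold higher in OCS/LPS (adjusted p = 0.000393). Slamf7 entered the tests only through the divided groups, so its rises are not offered as support. Cd7 fell by 2.17 in RIP-OVAhi (SE 0.31, adjusted p = 0.00483). It was also 1.75 lower there than in OCS/LPS (SE 0.31, adjusted p = 0.0466), a call lost without any 1 of those arrays (up to adjusted p = 0.369) or without the filter (adjusted p = 0.212). Over the arrays left out in turn, 3 to 8 of the 14 rose in RIP-OVAhi against naive.

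Of 4 genes that act on CD86 or CD83 protein or MHC class II, Marchf1, Marchf8 and Ciita were near background and Cd74, the invariant chain, was tested. Cd74, near background in RIP-OVAhi, was at least 4.69-fold lower there than in Rag, counted from log2 5 (adjusted p = 0.0124), a result not called without either RIP-OVAhi array (up to adjusted p = 0.0914) or without the filter (adjusted p = 0.0795). Cd74 entered the tests only through the other groups.

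Genes with patterns most like those of the members were taken by Pearson correlation over the 7 arrays, among 2981 tested genes that span at least 1 on the log2 scale. These arrays share groups, so r describes the likeness of profiles and carries no test. For Cd86 they were Mgat5, a glycosyltransferase (r = 0.992), Tox2, a transcription factor (r = 0.989), and Ptprv, a tyrosine phosphatase (r = 0.988). For Cd83 they were Lpcat1, a phospholipid acyltransferase (r = 0.995), Cd200, a ligand of an inhibitory receptor (r = 0.993), and Izumo1r, a folate receptor family gene (r = 0.992). Tnfrsf9 was most like Ptprs (r = 0.991), Lclat1 (r = 0.990) and Tnfsf11, which encodes RANK ligand (r = 0.983).

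Cd28 was most like Rgs3 (r = 0.997), Mpp1 (r = 0.991) and Ptprv (r = 0.991), and Icos was most like Stard3nl (r = 0.996), Polh (r = 0.993) and Csrp1 (r = 0.993). Ptprv was thus named for both Cd86 and Cd28. Tnfsf11, nearest Tnfrsf9 among TNF ligands by this rule, read 9.78 and 9.60 on the RIP-OVAhi arrays, 5.16 and 6.19 on the OCS/LPS arrays, 2.42 in Rag and 3.26 and 3.13 in naive cells. The members that span under 1 were nearest to Casp4, Psen2 and Casp1 (Cd27, r = 0.973 to 0.983), to Plscr3, Rnf25 and Lztfl1 (Tnfrsf18, r = 0.950 to 0.978) and to Vkorc1, Rfxank and Cdk2ap2 (Cd226, r = 0.889 to 0.913).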

How the data were processed

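For 45101 Affymetrix probe sets on 7 arrays, log2 values were deposited, made by the authors with GCRMA per the submitters' processing notes, which name no version. Per the labels' protocols, 100 ng of total RNA was amplified in a 2-cycle procedure. Values were used as deposited, and no scanner files were analysed here. Quantile normalization within GCRMA hides a change shared by most genes. Arrays have no read depth, and their number limits the precision.

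The platform annotation gave 1 symbol to 34958 probe sets, several to 932 and none to 9211, and only the first kind was named. Entrez identifiers matched 34754 to RefSeq (GRCm38.p6). A gene with several probe sets was read by the one of highest mean. The 8203 genes at log2 5 or more on at least 2 arrays were fitted with 1 mean per group in limma 3.58.1 (R 4.3.3), with 3 residual and 2.93 prior degrees of freedom. Rag, with 1 array, was assumed to vary like the others. Tests were two-sided, with Benjamini-Hochberg adjustment over all tested genes, and intervals are 95% from the moderated SE. The labels do not say that the 2 pools of a group were independent experiments, so p-values measure the spread between these arrays.

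The members and lists were chosen with earlier results of these data known. Named beside the members were some genes of each list and the 3 genes nearest in profile. The genes named from a list are not always those with the largest differences. Of 142 list entries, 129 were found on the array. The fit was tested on simulated data. Alternatives were centring, filters, probe set rules, a variance trend, a replicate block and leaving out each array. Other probe sets were tested in a fit of all 16140 probe sets above the filter.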

Additional observations from a re-analysis of the deposited data

How the results depend on the processing

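Over the alternatives and the arrays left out, 0 of 696 values of the members in the 6 comparisons changed direction on a called result, 28 lost a call and 5 gained one. Without a filter on low values, 18194 genes were tested and not 8203. In RIP-OVAhi against OCS/LPS limma then called 105 genes and 1 member (Cd86), against 239 and 3. Leaving out 1 array in turn gave 807 to 3281 genes and 5 to 6 members in RIP-OVAhi against naive, 1018 to 3646 and 3 to 5 in OCS/LPS against naive, 59 to 1622 and 0 to 3 in Rag against naive, 32 to 416 and 1 to 3 in RIP-OVAhi against OCS/LPS, 370 to 2549 and 4 to 5 in RIP-OVAhi against Rag, and 397 to 2833 and 2 to 4 in OCS/LPS against Rag. The gene counts were higher without either naive array, lower without any 1 of the RIP-OVAhi or OCS/LPS arrays, and the same without the Rag array in the comparisons that do not use it. Cd83 in OCS/LPS against naive was also lost without a filter (2.13, adjusted p = 0.0563).

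Centring on the median of the tested genes, an alternative chosen after seeing the data, moved all log2 differences by -0.12 in RIP-OVAhi and -0.15 in OCS/LPS against naive. The share of calls that were higher was then 47.9% in RIP-OVAhi against naive (61.0% as reported), 47.8% in OCS/LPS against naive (62.5%) and 68.4% in Rag against naive (78.6%). The member calls that changed with it were Tnfrsf18 in OCS/LPS against naive, gained, and Cd28 in OCS/LPS against Rag, lost. Averaging all probe sets lost Cd86 in OCS/LPS against Rag (0.43, adjusted p = 0.0702). With the replicate number as a block, limma called 2299, 2610, 187, 231, 1043 and 1031 genes in the order of comparisons above, and of the member calls Cd28 in OCS/LPS against Rag was lost (0.64, adjusted p = 0.0836). The differences between replicates 1 and 2 correlated across genes at 0.32 for RIP-OVAhi with OCS/LPS, 0.35 for RIP-OVAhi with naive and 0.13 for OCS/LPS with naive, and at -0.02, 0.20 and -0.06 over autosomal genes, so the numbers were not taken as pairs.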
